A study of Mus musculus with 16 samples.

Results

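The 9 interferon response genes *Stat2*, *Irf1*, *Irf7*, *Irf9*, *Ifit1*, *Ifit2*, *Ifit3*, *Usp18* and *Oasl2* were followed in the lumbar spinal cord of young SOD1G93A and wild-type mice. They were taken as every non-control row of the array files that bears one of these symbols, which gave 8 genes and 11 probes, and *Irf9* was added through its older symbol *Isgf3g*. This made 9 of the 19505 genes named on the array, and 13 of its 41174 probes. All mice were males of mixed B6SJL background, aged 40 or 80 days, ages at which the study calls the mutants presymptomatic. SOD1G93A mice carry many copies of a mutant human SOD1 transgene (the Gurney line, derived from a commercial colony), and the wild-type mice were non-transgenic and of matched age. Each of the 4 groups had 4 arrays, 16 in all, described in the labels as biological replicates. Each array paired Cy3-labeled cord RNA with a Cy5-labeled pool of neonatal heart, kidney and liver from both genotypes, so every level is a log2 ratio of cord to that pool. Dyes were not swapped, and levels of different probes are not compared.

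Type I interferons bind a receptor whose Janus kinases phosphorylate STAT proteins, among them STAT2, which joins IRF9 to enter the nucleus and switch on antiviral genes. IRF1 is induced chiefly by interferon gamma, while IRF7 amplifies type I interferon production. In the nervous system, microglia, astrocytes and neurons can all respond. IFIT proteins bind viral RNA, OASL2 belongs to the oligoadenylate synthetase family, and USP18 removes the ubiquitin-like modifier ISG15 and restrains the type I receptor.

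DNA motifs of 2 kinds carry these signals, and their matches are shown so that a reader can see which members hold the letters of either core. The interferon-stimulated response element (core TTTCNNTTTC, either strand) binds the complex of STAT2 and IRF9, and the gamma-activated site (core TTCNNNGAA, either strand) binds the STAT dimers that interferon gamma activates. RefSeq windows of 250 bases before to 50 bases after the start (GRCm38.p6) were found for 8 of the 9 members, all except *Usp18*. These members had 11 windows, since some have more than 1 start. The response element core lay in 3 of the 11 windows and the gamma-activated core in 2, against 3.44% and 8.3% of 32851 windows of the same length. Capitals mark the cores, all on the plus strand.
Stat2, chr10:128270266-128270295: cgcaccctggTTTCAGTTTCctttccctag
Ifit1, chr19:34640785-34640813: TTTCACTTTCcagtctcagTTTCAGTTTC
Ifit3, chr19:34583363-34583392: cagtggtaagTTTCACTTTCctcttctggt
Ifit3, chr19:34583397-34583426: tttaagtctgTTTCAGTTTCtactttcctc
Irf1, chr11:53769914-53769942: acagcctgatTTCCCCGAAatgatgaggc
Ifit2, chr19:34550444-34550471: catgggagcTTCCTGGAAgaatggataa
*Ifit1* and *Ifit3* each held the response element core at 2 places, and *Stat2* held it once, 222 bases before its start. *Irf1* and *Ifit2* held only the gamma-activated core, in the first of their 2 windows. Neither set of letters was found in the windows of *Irf7*, *Irf9* and *Oasl2*, which says only that these cores are not there.

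Over the 16 arrays, 46.1% to 55.3% of Cy3 spots were well above background, and precision is limited by 4 arrays a group. Tests were kept to probes that Feature Extraction marked as well above background, in Cy3, on 3 or more arrays of either genotype at that age. Markers of neurons, astrocytes and oligodendrocytes were all tested, 6 of 6 in each list, together with 5 of 6 motor neuron markers and 12 of 12 markers of microglia and macrophages. Of 6 T cell markers, 0 were tested at 40 days and 1 at 80 days. Every slide held 1 array of each group, and each group kept its own position on them. Position and group therefore cannot be told apart. In bulk tissue, fewer cells of a type and less RNA per cell cannot be told apart either.

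At 40 days, 10 member probes of 8 genes were tested, and at 80 days 11 probes of all 9 genes. The second probes of *Irf1* (A_52_P175685) and *Irf9* (A_52_P176013) were not well above background on any array. The main probes, named by the files on the NCBI35 (mm7) build, lie on chromosome 10 from 127793622 to 127793681 for *Stat2* (A_51_P225808), on chromosome 11 from 53733970 to 53734029 for *Irf1* (A_51_P146103) and on chromosome 14 from 50476767 to 50476826 for *Irf9* (A_51_P127367). Those of *Usp18* (A_51_P164219) and *Oasl2* (A_51_P387123) lie on chromosome 6 from 121295796 to 121295855 and on chromosome 5 from 114132992 to 114133051. On chromosome 19 lie *Ifit2* (A_51_P161021, 34277058 to 34277117), *Ifit3* (A_51_P359570, 34289919 to 34289978) and *Ifit1* (A_51_P327751, 34350610 to 34350669). The *Irf7* probe (A_51_P421876) spans 137682028 to 137682378 of chromosome 7. A second *Ifit3* probe (A_52_P663686) starts 23.97 kb from the first, so it may read a neighbouring copy such as *Ifit3b*, and its gene is uncertain. Exon and UTR annotation of this build was not used here.

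Among the effectors, *Usp18* was highest in single mice of the mutant groups. Its log2 ratios at 40 days were -0.70, -0.61, -0.57 and -1.01 in wild-type mice and -0.87, 0.39, -0.72 and -0.62 in SOD1G93A mice, replicates 1 to 4. At 80 days they were -0.80, -0.72, -0.38 and -0.63 in wild-type and -0.83, -0.50, -0.43 and 0.30 in SOD1G93A mice. Replicate 2 of the SOD1G93A mice of 40 days and replicate 4 of those of 80 days lay above all the other arrays, and the other mutant mice lay within or below the range of wild-type mice of their age. The raw Cy3 signals of those mice were 144 and 135 units, against 57 to 75 on the other 14 arrays, over local backgrounds of 34 to 40. These mice were singled out after their values were seen.

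*Oasl2* showed the same pair of mice. In SOD1G93A mice its ratios were -0.43, 0.49, -0.41 and -0.44 at 40 days and -0.20, -0.033, -0.051 and 0.94 at 80 days. Wild-type mice ranged from -0.39 to -0.23 at 40 days and from -0.25 to 0.11 at 80 days, below both mice. Without replicate 2, the SOD1G93A mice of 40 days all lay below the wild-type mice in *Oasl2*.

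The IFIT genes divided by gene. *Ifit3* reached 1.94 in SOD1G93A replicate 2 at 40 days, where the other mutant mice gave 0.74, 0.64 and 0.91 and wild-type mice 0.98, 0.97, 0.92 and 0.64. At 80 days it reached 1.89 in SOD1G93A replicate 4, beside 1.03, 1.23 and 1.32 in the other mutants and 1.13, 0.95, 1.49 and 1.20 in wild-type mice. Genotypes overlapped at both ages. *Ifit1* in SOD1G93A mice was 0.26, 0.98, 0.18 and 0.29 at 40 days and 0.50, 0.92, 0.46 and 1.16 at 80 days, so at 80 days replicate 2 also lay above the wild-type range. Wild-type *Ifit1* ran from 0.10 to 0.41 at 40 days and from 0.27 to 0.82 at 80 days. The ratio of *Ifit2* varied little: its main probe lay between -0.20 and 0.28 on all arrays, highest in SOD1G93A replicate 4 at 80 days. Its raw Cy3 signals were only 55.5 to 82.5 units over local backgrounds of 33.5 to 38. Those of *Ifit1* were 51 to 89 over 34 to 41. Both probes are dim, which can understate a change.

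The transcription factors were less alike. *Irf9* in SOD1G93A mice was -0.74, -0.19, -0.61 and -0.48 at 40 days and -0.57, -0.58, -0.53 and 0.025 at 80 days, with the same mice highest, while wild-type mice lay between -0.82 and -0.35. *Stat2*, the partner of IRF9 in the response complex, did not follow: it was 1.01 in SOD1G93A replicate 2 at 40 days and 0.89 in SOD1G93A replicate 4 at 80 days, inside the range of 0.58 to 1.09 of all arrays. *Irf1* was -2.04, -2.19, -2.38 and -2.23 in SOD1G93A mice of 40 days, where replicate 2 was not raised, and -1.85, -1.84, -1.81 and -1.48 at 80 days, where replicate 4 was highest. *Irf7* was dim, with raw Cy3 signals of 44 to 71.5 over backgrounds of 34.5 to 39. Its ratio was 0.28 in SOD1G93A replicate 2 at 40 days and 0.63 in SOD1G93A replicate 4 at 80 days, and both lay above every other array.

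**Figure D1:**
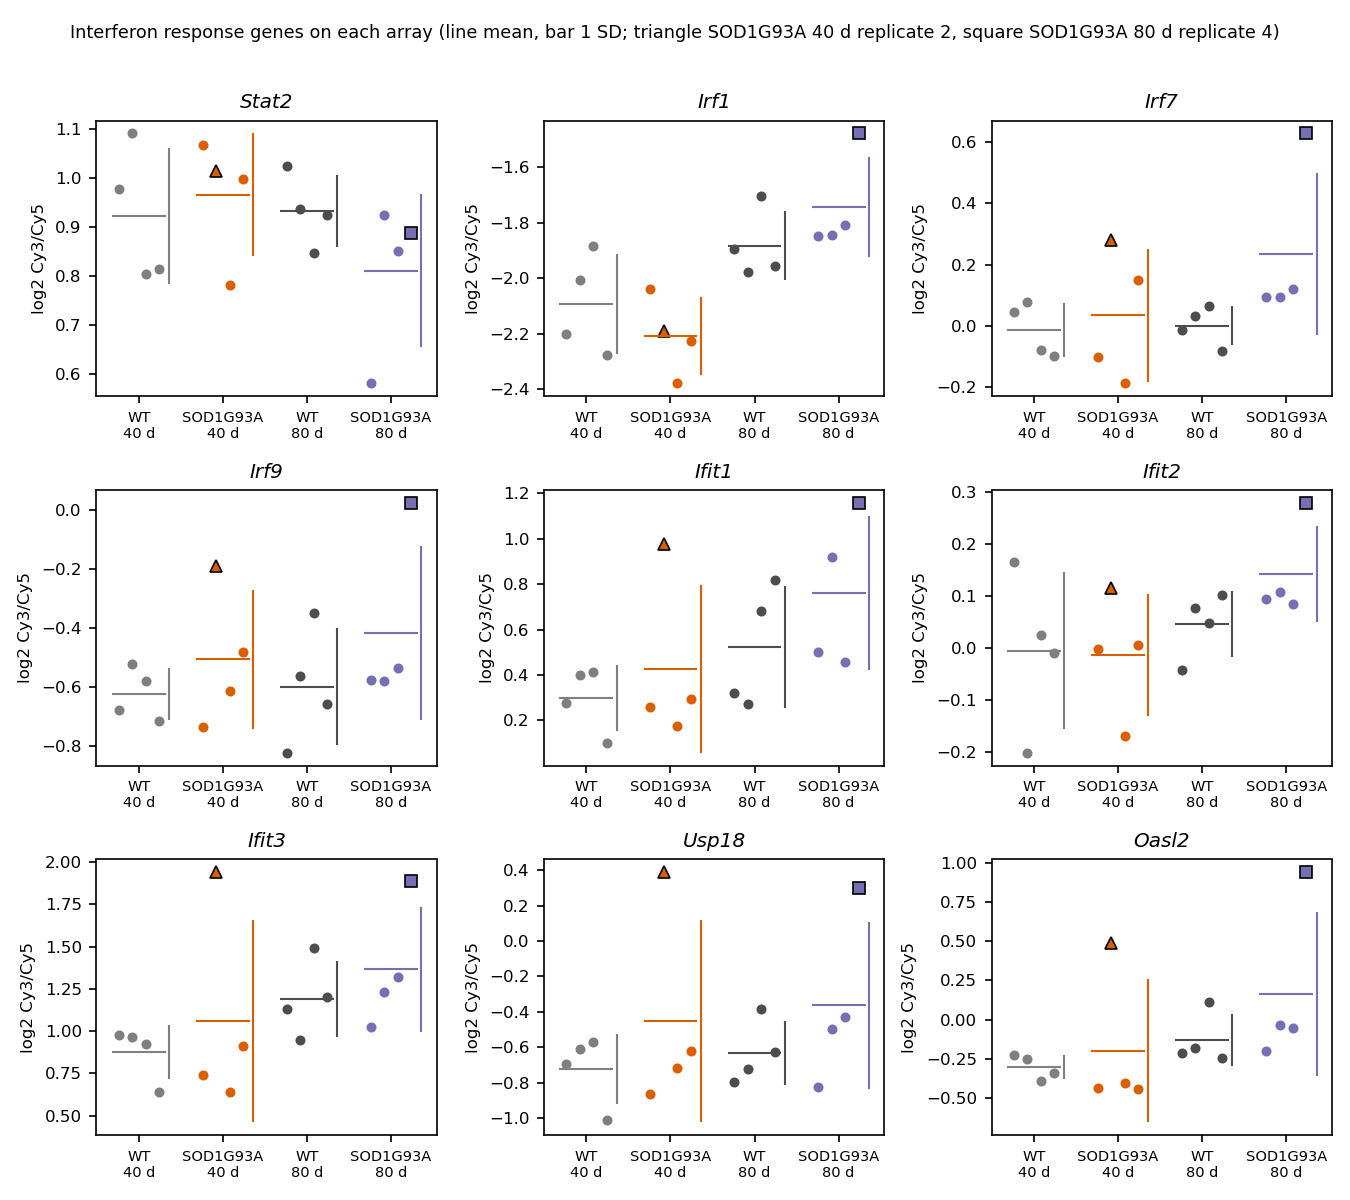
Log2 ratio of Cy3 to Cy5 of each member's main probe on each array, by group, with replicates 1 to 4 from left to right, the group mean as a line and 1 SD as a bar (n = 4). The triangle and the square, SOD1G93A replicate 2 at 40 days and replicate 4 at 80 days, lie apart for Usp18 (0.39 and 0.30), Oasl2 (0.49 and 0.94) and Ifit3 (1.94 and 1.89), and inside the range of all arrays for Stat2.

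The comparison of genotypes at 40 days called none of the members. At a limma p under 0.05, the study's own threshold, 0 of 10 member probes were called, against 4.47% of 21338 probes, and 0 member probes at an adjusted p under 0.05, as over all probes (0%). Genotypes lay apart without overlap in 0 of the 10, against 2.83% of all probes. In 8 probes the SOD1G93A mean was the higher and in 2 the lower, and the median difference was 0.096 on the log2 scale, against 0.0029 over all probes. Among the 8 was the second *Ifit2* probe, well above background on 3 of the 4 SOD1G93A and 1 of the 4 wild-type arrays. It passed the filter only through the group where it is higher, so its difference is a description. The same holds for the count of 8 and the median of 0.096, which include it. *Usp18* was -0.45 ± 0.57 in SOD1G93A and -0.72 ± 0.20 in wild-type mice (SD, n = 4), a difference of 0.27 with a 95% interval of -0.27 to 0.80 (limma p = 0.288, exact permutation p = 0.6). *Irf1* was the lowest, with a difference of -0.12 (limma p = 0.264, exact permutation p = 0.371). The smallest exact p that 4 arrays against 4 allow is 0.0286. Without SOD1G93A replicate 2, the difference turned to -0.013 for *Usp18*, -0.12 for *Oasl2*, -0.11 for *Ifit3*, -0.16 for its second probe and -0.055 for *Ifit1*. In these probes the sign changed, while *Stat2*, *Irf9* and the second *Ifit2* probe stayed positive. That mouse was singled out because members were high in it, so leaving it out lowers most differences by construction.

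At 80 days, 0 of 11 member probes passed a limma p under 0.05, against 6.86% of 21603 probes, and 0 at an adjusted p under 0.05, again as over all probes (0%). SOD1G93A means were higher in 10 probes, *Irf7* among them, with a median difference of 0.18 against -0.0012 over all probes, and *Stat2* was the exception, with a difference of -0.12 (95% interval -0.31 to 0.063). *Oasl2* was 0.16 ± 0.52 in SOD1G93A and -0.13 ± 0.16 in wild-type mice (SD, n = 4), a difference of 0.30 with an interval of -0.18 to 0.78 (limma p = 0.2, exact permutation p = 0.371). Genotypes lay apart without overlap in 0 of the other 10 member probes, against 4.31% of all probes. *Irf7* was well above background on 3 of the 4 SOD1G93A and 2 of the 4 wild-type arrays, so it passed the filter only through the group where it is higher, and its difference is given as a description. The same holds for the count of 10 and the median of 0.18, which include it. *Irf7* was 0.093, 0.096, 0.12 and 0.63 in SOD1G93A and -0.013, 0.032, 0.066 and -0.081 in wild-type mice, which do not overlap, a difference of 0.23. Without SOD1G93A replicate 4, differences of all member probes but *Stat2* (-0.15) shrank to between 0.00077 (*Ifit3*) and 0.10 (*Ifit1* and *Irf7*). That mouse too was singled out because members were high in it, so a fall without it follows from the choice.

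**Figure D2:**
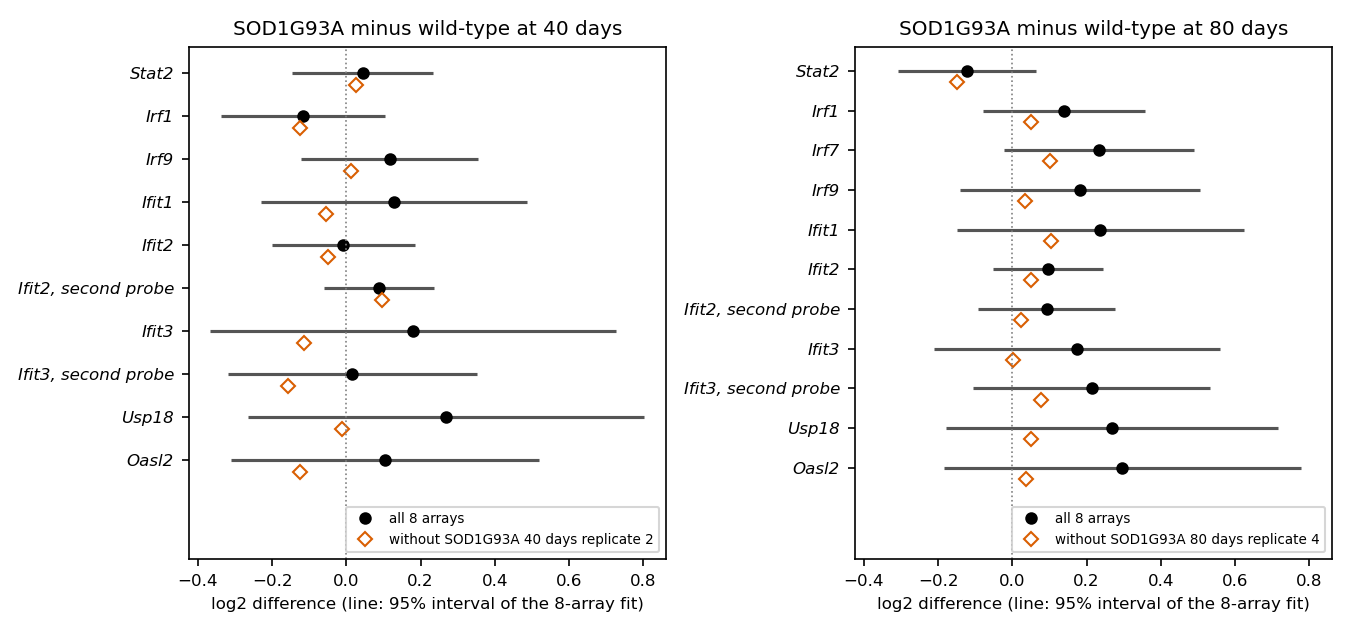
Difference in log2 ratio, SOD1G93A minus wild-type, of each tested member probe at 40 days (left) and 80 days (right), with its 95% interval over 8 arrays (black) and the value without the 1 mutant mouse that stood apart (open diamonds). Every interval includes 0, and without that mouse Usp18 moved from 0.27 to -0.013 at 40 days and from 0.27 to 0.049 at 80 days. The mouse left out was chosen because members were high in it, which by itself lowers most of the open diamonds.

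The genotype difference was itself compared between the ages. Of 11 member probes, 0 passed a limma p under 0.05, against 6.68% of 21953 probes, and 0 an adjusted p under 0.05, as over all probes (0%). *Irf1* came nearest, at -0.12 at 40 days and 0.14 at 80 days, a change of 0.26 with an interval of -0.054 to 0.57 (limma adjusted p = 0.798). The genotype difference of *Usp18* was 0.27 at both ages, and its change was 0.00093 with an interval of -0.73 to 0.73, so a sizeable change either way was not detectable with these arrays.

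From 40 to 80 days in SOD1G93A mice, members were called at a limma p under 0.05 at about the share of all probes, and *Irf1* rose most. Its mean went from -2.21 ± 0.14 to -1.74 ± 0.18 (SD, n = 4), a rise of 0.47 with an interval of 0.25 to 0.69 (limma p = 0.000359, adjusted p = 0.0398, exact permutation p = 0.0286). The ages did not overlap, and the value was higher at 80 days on 4 of 4 slides. Without SOD1G93A replicate 4 at 80 days the rise was 0.38 and the adjusted p 0.0772, and without SOD1G93A replicate 2 at 40 days 0.47 and 0.103. Markers of other cells moved in the same comparison. Of 12 markers of microglia and macrophages, 11 were higher in the older mutants and 1 of them was called, the median of the 12 changes being 0.31. Summed, their log2 ratios were 5.70, 4.50, 8.63 and 18.3 in SOD1G93A replicates 1 to 4 at 80 days. At 40 days the SOD1G93A sums ran from 5.03 to 6.84. All 4 markers of meningeal fibroblasts were higher, 1 of them called, with a median of 0.69. Oligodendrocyte markers had a median of -0.31, with 3 of 6 called lower. Astrocyte markers had a median of -0.19, with 5 of 6 lower, 2 of them called, while the 1 higher marker was called as well. All 6 neuron markers were lower (median -0.12), 1 of them called. In wild-type mice the medians, in the same order of lists, were 0.19, 0.29, -0.17, 0.15 and 0.041. Over all lists, 16.7% of 66 tested markers were called in the mutants, against 16.9% of all probes. The part of these cells in the rise of *Irf1* was not tested. The second *Ifit3* probe rose as well, by 0.34 (limma p = 0.0457, adjusted p = 0.285, exact permutation p = 0.2). These were 2 of 11 member probes, or 1 at the adjusted threshold, against 16.9% and 1.12% of all probes. *Irf1* was also the 1 member probe whose ages did not overlap, against 12.4% of all probes. In wild-type mice 0 of 11 passed a limma p under 0.05 and 0 the adjusted threshold, against 15.1% and 1.58%. Even so, all 11 wild-type means were higher at 80 days, as were those of 55.1% of all probes. There *Irf1* differed by 0.21 (limma p = 0.0605, exact permutation p = 0.143), and the second *Ifit3* probe was the 1 member probe whose ages did not overlap, against 7.66% of all probes (0.15, limma p = 0.368, exact permutation p = 0.0286).

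The ages in SOD1G93A mice were the comparison that 1 mouse changed most. Without SOD1G93A replicate 2 at 40 days, 7 of 11 member probes passed a limma p under 0.05, against 14.2% of all probes: *Ifit3* by 0.60 and its second probe by 0.52, *Oasl2* by 0.59, *Ifit1* by 0.52, *Irf1* by 0.47, *Ifit2* by 0.20 and *Irf7* by 0.28. *Irf7* passed the filter only through the SOD1G93A mice of 80 days, where it is higher, and without *Irf7* the count is 6. Their adjusted p-values ran from 0.103 to 0.3. Without SOD1G93A replicate 4 at 80 days, *Irf1* alone passed, against 17.9% of all probes, and *Usp18* was lower at 80 days (-0.13, limma adjusted p = 0.818). Both mice were singled out because members were high in them. Leaving out the younger therefore raises most of these differences, and leaving out the older lowers most. The counts are descriptions, not to be read against the shares of all probes.

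Members varied together from mouse to mouse. Over 16 arrays, 23 of 36 pairs of members correlated at a Benjamini-Hochberg adjusted permutation p under 0.05 by Pearson's r and 20 by Spearman's rho, and all 23 were positive. The median r was 0.63, from -0.16 to 0.92. *Ifit3* and *Usp18* gave the highest r, 0.92 (permutation p = 3e-05, adjusted p = 0.00036), with a rho of 0.74 (permutation p = 0.00182, adjusted p = 0.00936). *Ifit3* and *Oasl2* gave an r of 0.92 and a rho of 0.89. *Stat2* took part in 0 of the 23 pairs, with a median r of 0.015 over its 8. *Irf7* took part in 7 of the 23 pairs by r and in 6 of the 20 by rho. It was not tested at 40 days and passed the filter only through the SOD1G93A mice of 80 days, where it is higher. Counts and medians that include *Irf7* are therefore descriptions. Without the 2 arrays farthest from the median, again SOD1G93A replicate 4 at 80 days and replicate 2 at 40 days, the median r was 0.45 and 30 of 36 pairs were positive. Then 7 pairs passed, against 23 before, so that count rests largely on those arrays. On deviations from the group means 15 pairs passed. The share among pairs of other genes was not tested. *Ifit3* with *Oasl2* kept an r of 0.87 and *Ifit3* with *Usp18* one of 0.77. Within an age, the median r was 0.42 over the 8 arrays of 40 days and 0.82 over those of 80 days.

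The wider pathway was read from 96 other interferon genes, 92 of which have a probe. Of the 6 ligands, including *Ifnb1* and *Ifng*, 0 were tested at either age. At 40 days 62 list genes were tested: 1 was higher in SOD1G93A mice, 1 was lower, and the median difference was -0.011. The higher one was *Ddx58*, which encodes the RNA sensor RIG-I, by 0.23 (limma p = 0.0161, exact permutation p = 0.0286), with genotypes that did not overlap. The lower one was *Parp9*, by -0.31 (limma p = 0.0209, exact permutation p = 0.0571). At 80 days 65 were tested, with 1 higher and 2 lower and a median difference of 0.046. The higher one was *Dhx58*, which encodes another sensor of the RIG-I family (0.21, limma p = 0.0412, exact permutation p = 0.0857). *Dhx58* was not among the genes tested at 40 days. *Isg20*, which encodes a nuclease, was lower (-0.22, limma p = 0.0233, exact permutation p = 0.0571). The 5 receptors, 3 kinases and 2 Stats tested had 0 calls at both ages. As shares of the list, 3.23% and 4.62% were called, near those of all probes.

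The difference between ages was called in *Ddx58* (-0.32, limma adjusted p = 0.548) and *Parp9* (0.33, limma adjusted p = 0.745), at unadjusted p-values under 0.05. These were 3.08% of the 65 list genes, against 6.68% of all probes. From 40 to 80 days in SOD1G93A mice, 4 list genes rose and 3 fell, 10.8% of the 65 tested, against 16.9% of all probes. The 4 were *Ifi35* and genes of the immunity-related GTPases *Igtp*, *Irgm1* and *Irgm2*, of which *Igtp* rose by 0.64 (limma adjusted p = 0.0575). Without SOD1G93A replicate 4 at 80 days, *Igtp* rose by 0.49 and *Irgm1* by 0.22, where it had risen by 0.37 with that mouse, and 5 list genes were called higher and 6 lower. *Ifngr2*, a chain of the interferon gamma receptor, fell by 0.28 (limma adjusted p = 0.037), and *Ddx58* and the RNA-dependent kinase *Eif2ak2* fell as well. In wild-type mice 3 rose and 3 fell, 9.23% of the list against 15.1% of all probes. There the means of *Ifi35*, *Igtp*, *Irgm1* and *Irgm2* were also higher at 80 days. Wild-type *Igtp* ran from -0.50 to -0.11 at 40 days and from -0.25 to 0.15 at 80 days.

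The mouse that stood apart at 80 days did so across the response. SOD1G93A replicate 4 was the highest of the 8 arrays of its age for 8 of 9 members, for 41 of 65 list genes and for 28 of the 39 interferon-induced genes of the list (71.8%), whereas 13.6% of all probes were highest there. SOD1G93A replicate 2 at 40 days was highest for 5 of 8 members, but for 13 of 62 list genes and 11 of 37 interferon-induced genes (29.7%), with 8.46% of all probes. The counts of members restate how these mice were singled out. At that age wild-type replicate 3 held 24.3% of the interferon-induced genes. Over these genes, the median deviation from their means was 0.33 in the older mouse and 0.076 in the younger. Wild-type replicate 2 at 40 days was at 0.12, so the younger mouse was not the highest of its age by this measure.

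**Figure D3:**
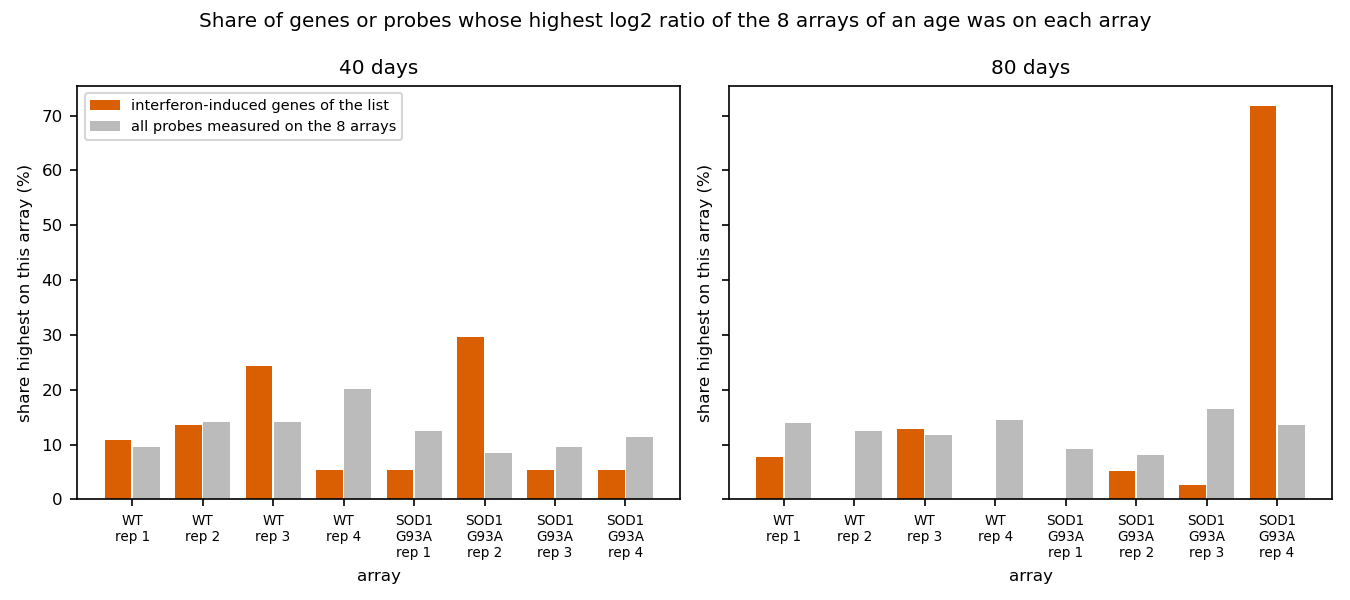
Percentage of interferon-induced list genes (orange, 37 at 40 days and 39 at 80 days) and of all probes (grey) whose highest log2 ratio among the 8 arrays of an age fell on each array. SOD1G93A replicate 4 at 80 days held 71.8% of the list genes and 13.6% of the probes, and SOD1G93A replicate 2 at 40 days 29.7% and 8.46%.

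Of the list genes shown, *Rtp4* followed the mean of the members most closely (r = 0.93 over 16 arrays), before *Bst2* (0.86) and *Gbp3* (0.86), and *Isg15* had an r of 0.81. These are descriptions over arrays that share the pair of high mice. *Bst2*, which encodes tetherin, was -1.23 in SOD1G93A replicate 2 at 40 days and -0.33 in replicate 4 at 80 days, while wild-type replicate 3 at 80 days was at -1.22. *Irgm1* was 0.51 in the older mouse and -0.19 in the younger, the latter inside the range of -0.44 to 0.070 of the other arrays. Outside the members and the list, 12693 genes were searched, and the 8 most alike were *Oas1f* (0.89), *Rnf213* (0.88), *Fbxo39* (0.83), *Cd52* (0.80), *Pdia6* (0.80), *H2-Q8* (0.79), *Wdfy4* (0.77) and *Mlh3* (0.77). *Oas1f* and *H2-Q8* have close paralogs whose transcripts a probe may share.

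**Figure D4:**
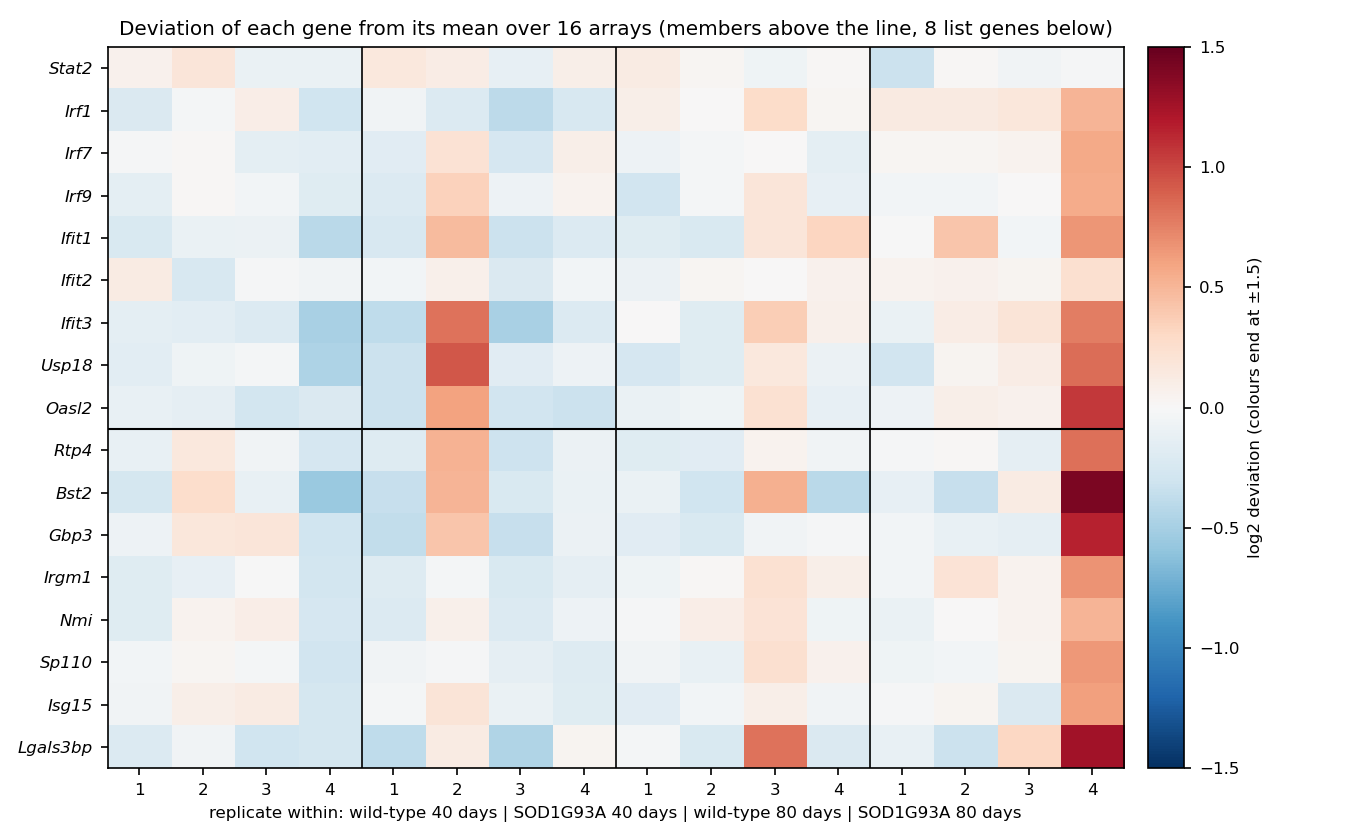
Deviation of each gene from its own mean over 16 arrays (log2, red higher, blue lower), for the 9 members and for 8 list genes with a high correlation to the members, with arrays in columns by group. The column of SOD1G93A replicate 4 at 80 days is red in all rows but Stat2, and that of SOD1G93A replicate 2 at 40 days is red for Usp18, Ifit3, Oasl2, Ifit1, Irf9 and Rtp4 but not for Irf1, Irgm1 or Sp110.

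Other values of these mice differed between them. The 12 markers of microglia and macrophages had a median deviation of 0.92 in SOD1G93A replicate 4 at 80 days and of -0.068 in SOD1G93A replicate 2 at 40 days. Wild-type replicate 3 at 80 days was at 0.69, and there the mean deviation of the members was 0.15, against 0.57 and 0.37 in the pair of mutant mice. The sum of these markers' log2 ratios ran from 5.54 to 6.81 in wild-type and from 5.03 to 6.84 in SOD1G93A mice at 40 days, and from 5.93 to 14.3 and from 4.50 to 18.3 at 80 days. Markers of skeletal muscle (3 of 4 tested) were at 2.49 in the younger and 0.98 in the older of these mice, and at 1.22 in SOD1G93A replicate 2 and 0.95 in wild-type replicate 1 at 80 days, where the members deviated by 0.096 and -0.086. The array of the older mouse had 63 spots with a bright local background in Cy3, against 0 to 5 on the others. Under the background treatment that leaves those spots as they are, that mouse was highest for 7 of 9 members. The part of other cells and of the array in these values was not tested.

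**Figure D5:**
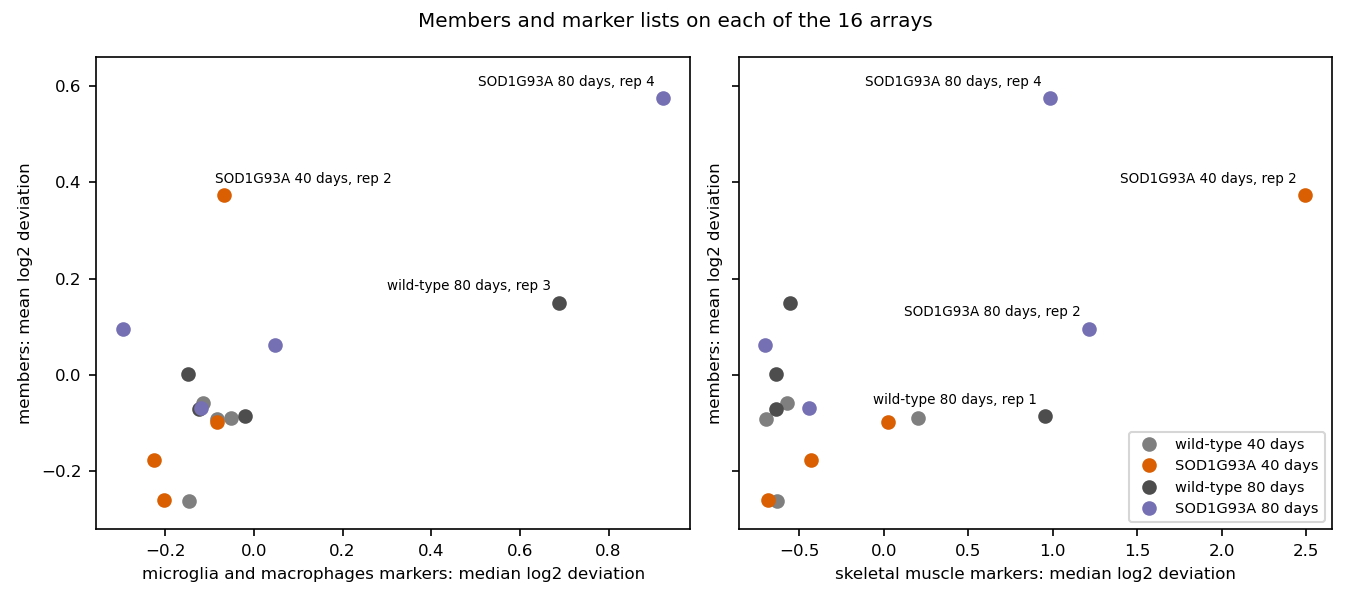
Mean log2 deviation of the members' main probes against the median log2 deviation of microglia and macrophage markers (left, 12 genes) and skeletal muscle markers (right, 3 genes), 1 point per array and colours by group. SOD1G93A replicate 4 at 80 days is high for members (0.57) and microglial markers (0.92), while SOD1G93A replicate 2 at 40 days is high for members (0.37) with microglial markers at -0.068 and muscle markers at 2.49.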

How the data were processed

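The authors extracted the scanned arrays with Agilent Feature Extraction (9.5.3.1 per the file headers). The deposited signals are intensity values, linear and not normalized. The deposited matrix of log2 values was normalized by the authors separately at each age, so it served for genotype comparisons only.

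Median signals were corrected with normexp (offset 50) after local backgrounds more than 20 units above their spot, which compress the ratios of a whole array, were set to the array's median. Loess within and Aquantile between arrays followed, in limma 3.58.1 (R 4.3.3, statmod 1.5.0 and the data.table package, version 1.17.8). Outlier spots were dropped and spots of 1 probe averaged. A dim probe moves toward the offset, which understates its change. All tested probes were fitted together with lmFit and eBayes, on 8 arrays for genotype and 16 for age, two-sided, called at p under 0.05, with Benjamini-Hochberg values over all of them. Single probes also had an exact permutation test, and member pairs 100000 permutations. The fit was tested on simulated data.

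Members and lists were chosen with earlier results of these data known. A gene's main probe is its brightest tested one. Results of 2 list genes are not reported here, while counts include them. The text names all members, other called list genes, the 8 genes outside the list most like the members, and others chosen after their values were seen. Alternatives changed 1 choice at a time: backgrounds not reset or not subtracted, median centring, Cy3 alone, the authors' matrix, other filters, array weights, the replicate block, 16 arrays for the spread, and each array left out. Plots used matplotlib 3.10.9 and Python 3.11.15.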

Additional observations from a re-analysis of the deposited data

Results flagged for a closer look

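In 7 cases a member's main probe had 1 array of a group of 4 far from the other 3, by the gap to the nearest array as a share of the range of the group. For SOD1G93A replicate 4 at 80 days the share was 0.889 for *Irf1*, 0.949 for *Irf7*, 0.923 for *Irf9*, 0.88 for *Ifit2* and 0.855 for *Oasl2*. For SOD1G93A replicate 2 at 40 days it was 0.855 for *Ifit1* and 0.963 for *Oasl2*. All 7 were high values. *Usp18* and *Ifit3* did not reach the limit in either mouse, with shares of 0.804 and 0.792 in the younger and 0.646 and 0.655 in the older. About 1 in 20 groups of 4 reaches the limit by chance, and among all probes 5.15% to 5.76% did in a group. In 1.19% of probes SOD1G93A replicate 4 at 80 days was the high array past the limit, and in 0.633% SOD1G93A replicate 2 at 40 days was. Of 65 list genes, 9 were past it in the older mouse, among them *Rtp4*, *Oas1a*, *Gbp2* and *Gbp3*, and 0 in the other SOD1G93A mice of 80 days.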

How the results depend on the processing

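With 0 member probes called between the genotypes at 40 days and 0 at 80 days, the count was the same under every alternative run except the Cy3 channel alone at 80 days, where 1 was called (*Stat2*, -0.17). Leaving out each array gave 0 to 0 at 40 days and 0 to 1 at 80 days (*Usp18*, 0.42, without SOD1G93A replicate 1, and the second *Ifit3* probe, 0.31, without SOD1G93A replicate 2). The difference between ages had 1 call under median centring and 1 with the Cy3 channel alone, and 0 to 1 without single arrays (*Irf1*, without wild-type replicate 4 at 40 days or replicate 3 at 80 days). Age in wild-type mice gave 0 to 1 (*Irf1*, without wild-type replicate 3 at 40 days). Age in SOD1G93A mice fell from 2 calls to 1 without the reset of backgrounds, 1 under median centring, 1 with array weights and 1 with the replicate block, and ran from 1 to 7 without single arrays, with 1 without SOD1G93A replicates 1 or 4 at 40 days or replicate 4 at 80 days. The rise of *Irf1* passed an unadjusted limma p under 0.05 in all alternatives run. Of 36 pairs, 15 passed on deviations from the group means and 7 without the 2 farthest arrays, against 23.

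Some small differences at 40 days changed sign: *Stat2* (-0.029) and the second *Ifit2* probe (-0.022) under median centring, and *Ifit2* with the Cy3 channel alone (0.019) and in the series matrix (0.012). Without single arrays, the lowest and highest values at 40 days were -0.013 and 0.41 for *Usp18*, -0.12 and 0.18 for *Oasl2*, -0.11 and 0.32 for *Ifit3*, -0.16 and 0.13 for its second probe, -0.055 and 0.21 for *Ifit1*, and -0.073 and 0.049 for *Ifit2*. Of all probes called, the share higher in SOD1G93A mice was 54.6% at 40 days and 54.5% at 80 days. It was 8.98% and 82.8% under median centring, 40.2% and 42.4% without the reset, 65.1% and 58.9% with the Cy3 channel alone, and 67.1% and 59.9% in the series matrix.

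The number of members highest on SOD1G93A replicate 2 at 40 days (5 of 8) and replicate 4 at 80 days (8 of 9) was set against 5 other treatments of the values, chosen after seeing the data, and stayed at 5 and at 7 to 8. Slides paired the arrays weakly: correlations of same-slide deviations ran from -0.0646 to 0.12 at 40 days and from 0.000965 to 0.2 at 80 days, so the replicate block was kept as an alternative. Without the filter on dim probes 1881 and 2412 probes were called for genotype, against 953 and 1481, and 2459 for the difference between ages (1466) and 5004 for age in wild-type mice (3307). At 40 days 246 were called without the reset, 559 with the Cy3 channel alone, 538 in the series matrix and 1894 without wild-type replicate 4. At 80 days 2389 were called with array weights and 974 without SOD1G93A replicate 3, and 797 for the difference between ages without the reset. The series matrix was not run for the age comparisons or the pairs. *Irf7* lay near background, where its ratio has little resolution.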
